A study of Mus musculus with 8 samples.

Results

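Most Slc25 genes encode carriers that move metabolites across the inner mitochondrial membrane. The mRNA levels of the family were compared in BAT of 4 WT mice and 4 ATGLKO mice. All protein-coding genes with a symbol from Slc25a2 to Slc25a54 were taken from the table of counts, which gave 46 genes of 31053 gene identifiers. Of these, 32 had enough counts to be tested, among 8930 genes tested in all, and 14 did not. ATGLKO is the labels' name for Ucp1Δ/Δ mice, made by crossing Pnpla2 fl/fl mice (B6N.129S-Pnpla2tm1Eek/J) with mice that express Cre from the Ucp1 promoter (B6.FVBTg(Ucp1-cre)1Evdr/J). ATGL, the triglyceride lipase encoded by Pnpla2, is by this design deleted in UCP1-positive adipocytes and not in the other cells of the tissue. Whether the WT mice were littermates of the ATGLKO mice is not given in the sources used here. The labels give the strain C57BL6/J and an age of 10 weeks for both genotypes, while a legend of the study gives a younger age, and the methods state that only males were used. As cell type the labels enter stromal vascular fraction, the cells that remain once adipocytes are removed. Fabp4, an adipocyte marker, was at 6531 ± 175 CPM in WT mice (SD, n = 4) and Cidea, a marker of brown adipocytes, at 5948 ± 1634 CPM, so adipocyte RNA was abundant in these libraries.

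Carriers of the family are built from the same repeated module, and most exchange particular substrates between cytosol and matrix. ADP and ATP, phosphate, acylcarnitines, amino acids, coenzyme A, vitamins, NAD and iron enter or leave mitochondria in this way. The uncoupling proteins belong to the same family under other symbols, among them UCP1, through which brown fat produces heat. Brown adipocytes burn fatty acids released from their own lipid droplets by lipases such as ATGL, and the carnitine/acylcarnitine carrier brings those acids into the matrix as acylcarnitines.

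The WT libraries held 2017697 to 3115956 counts each and the ATGLKO libraries 2240612 to 2941799. Expression is given as CPM, the count scaled to a common library size after TMM, and 3 counts corresponded to between 0.933 and 1.53 CPM, a floor that covers counting error only. Pnpla2 was at 2702 to 3152 CPM in WT mice and at 403 to 531 CPM in ATGLKO mice. Of all genes tested, 13.3% were higher and 7.63% lower in ATGLKO mice. Macrophage markers were higher in ATGLKO mice for 7 of 7 genes, with a summed level of 89.8 to 130.4 CPM in WT mice and 939 to 1597 CPM in ATGLKO mice. Among them, Adgre1 and Cd68 were at 0 to 4.93 and 1.67 to 4.48 CPM in WT mice, near the floor of 3 counts. Both passed the filter on low counts through the ATGLKO mice, the genotype in which they are high. Fibroblast markers were higher for 4 of 4 genes, with a summed level of 287 to 395 CPM in WT mice and 845 to 1545 CPM in ATGLKO mice, endothelial markers for 1 of 4, and none of 3 blood markers or of 8 tested skeletal muscle markers passed the test in either direction. Of 7 brown adipocyte markers, 4 were lower, and their summed level was 13540 to 23340 CPM in WT mice and 9903 to 14780 CPM in ATGLKO mice. Fewer cells of a type and less RNA per cell cannot be told apart in a bulk sample, and the part of these shifts in the carrier levels was not tested. Levels are compared within a gene only, since counts are not scaled by gene length. Exons of Slc25a33, Slc25a37 and Slc25a46 overlap genes on the other strand, and the Slc25a51 gene overlaps the small gene Gm25692 on its own strand, so reads of these pairs may not be separable.

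Of the 32 carrier genes tested, 9 were lower and 1 was higher in ATGLKO mice, and 22 did not pass the threshold, an edgeR adjusted p of 0.05 in the quasi-likelihood test, corrected by Benjamini-Hochberg over all genes tested. The lower genes were Slc25a34, Slc25a32, Slc25a22, Slc25a20, Slc25a16, Slc25a15, Slc25a35, Slc25a44 and Slc25a23, and the higher gene was Slc25a24. The share of carriers that were lower was 28.1%, against 7.63% of all genes tested, and the share that were higher was 3.12%, against 13.3% of all genes tested. The log2FC, ATGLKO minus WT throughout, was below 0 for 23 of the 32 carriers (71.9%, against 50.7% of all genes tested), and its median was -0.34 over the carriers and -0.01 over all genes tested. The carriers share the mice and are not replicates, so these shares and medians describe the family and carry no test. The counts per substrate group given below rest on 6 tested genes or fewer each. They are to be read beside the same 7.63% of all genes tested and do not set any substrate group apart. Scaling by total counts alone moved the median of all genes tested to 0.13, and under it 7 carriers were lower and 4 higher, against 404 genes lower and 1478 higher in the whole series, where TMM scaling gave 681 and 1191.

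**Figure D1:**
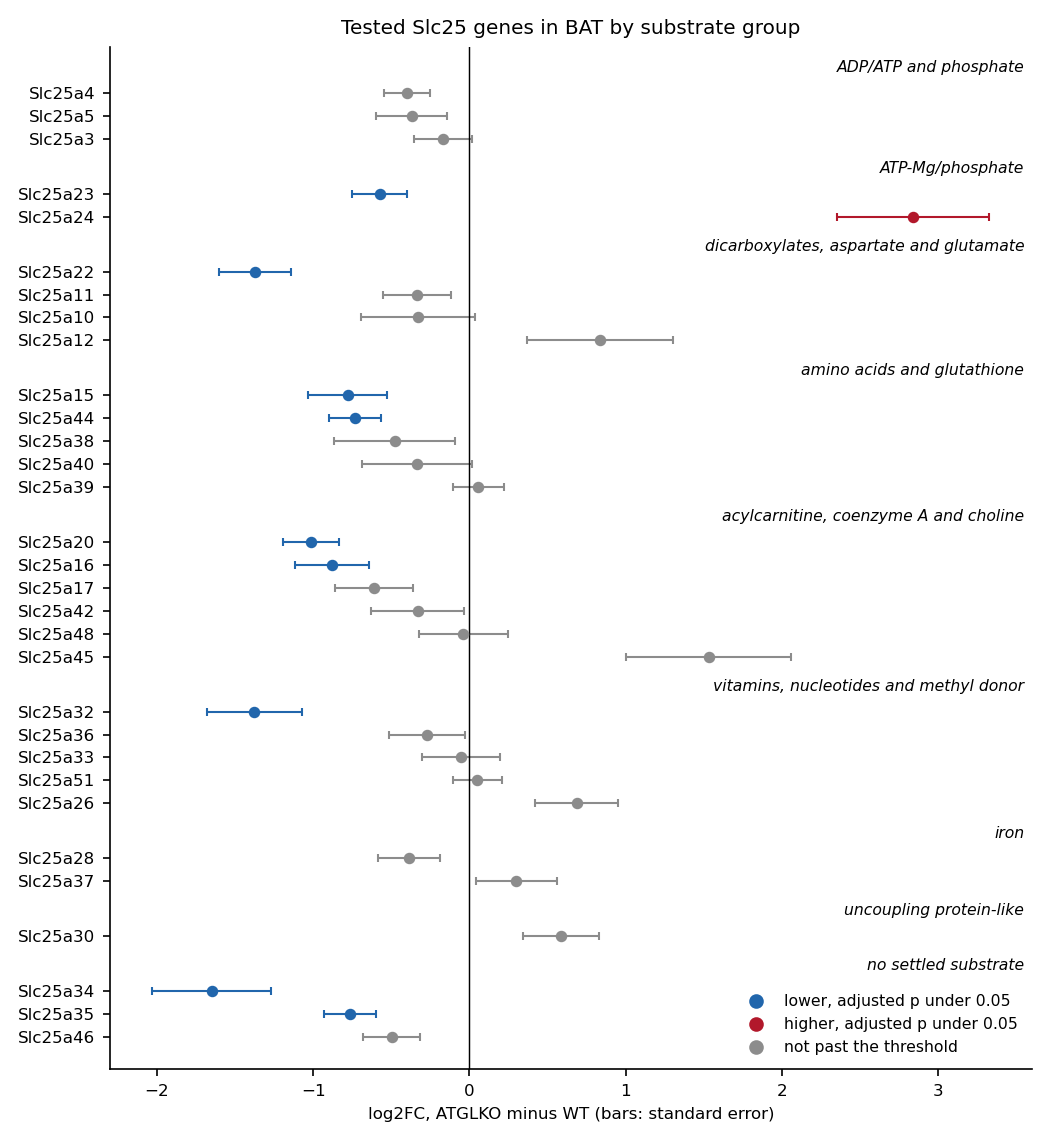
Log2FC (x axis, ATGLKO minus WT, log2 scale) of tested Slc25 genes in BAT, all but 1 of the 32, grouped by substrate, with bars for the standard error and colours for genes past the adjusted p threshold of 0.05. The 9 lower genes are spread over 6 of the 9 substrate groups, and Slc25a24 at 2.84 is the gene past the threshold above 0.

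Summed over the 46 genes, carrier mRNA was at 3065, 3279, 3187 and 2971 CPM in WT replicates 1 to 4 and at 2714, 2340, 2724 and 2567 CPM in ATGLKO replicates 1 to 4. Every ATGLKO mouse was below every WT mouse, and the mean of 2586 ± 179 CPM (SD, n = 4) was 82.8% of the WT mean of 3125 ± 135 CPM. This holds with TMM scaling. When each library was scaled by its total count alone, an alternative added after the data were seen, the sum was 2779 to 3063 CPM in WT mice and 2557 to 2813 CPM in ATGLKO mice, which overlap, and the ATGLKO mean was 90.7% of the WT mean, lower by a difference of -274 CPM. With TMM, Slc25a20, Slc25a32 and Slc25a4 had the 3 largest differences, of -139, -116 and -111 CPM or -366 CPM together, while the mean sum fell by 539 CPM. The sum follows the genes with the most counts, and the number of carriers with at least 1 count was alike in both genotypes, 37 to 40 in WT mice and 39 to 43 in ATGLKO mice.

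Promoter sequences are shown for 3 carriers that passed the threshold: Slc25a34, which has no settled substrate, Slc25a20, the acylcarnitine carrier, and Slc25a24, the gene that rose. RefSeq promoters of build GRCm38.p6, which run from 250 bases before to 50 bases after a start site, were found for 35 of the 46 genes. Among the genes with no entry were Slc25a32, Slc25a35 and Slc25a44. The 3 motifs searched, on both strands, were AAGGTCA, bound by estrogen-related receptors, GCGCANGC, the core of the NRF1 site, and the direct repeat AGGNCANAGGNCA bound by pairs of nuclear receptors, whose repeats overlap most of the first motif. The promoters shown are those of Slc25a34 (chr4:141623785-141624084, minus strand), Slc25a20 (chr9:108661886-108662185, plus strand) and Slc25a24 (chr3:109122899-109123198, plus strand), each written on the strand of its gene with any motif found in capitals.
Slc25a34: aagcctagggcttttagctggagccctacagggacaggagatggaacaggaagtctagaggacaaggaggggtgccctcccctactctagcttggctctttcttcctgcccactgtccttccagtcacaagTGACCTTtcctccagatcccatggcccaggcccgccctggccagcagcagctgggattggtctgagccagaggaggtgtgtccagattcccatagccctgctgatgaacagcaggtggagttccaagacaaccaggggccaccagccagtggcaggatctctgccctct
Slc25a20: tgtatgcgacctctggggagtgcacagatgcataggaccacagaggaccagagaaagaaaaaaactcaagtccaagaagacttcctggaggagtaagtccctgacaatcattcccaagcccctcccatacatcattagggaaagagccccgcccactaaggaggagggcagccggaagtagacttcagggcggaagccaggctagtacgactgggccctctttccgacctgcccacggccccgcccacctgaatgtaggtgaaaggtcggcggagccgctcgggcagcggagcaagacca
Slc25a24: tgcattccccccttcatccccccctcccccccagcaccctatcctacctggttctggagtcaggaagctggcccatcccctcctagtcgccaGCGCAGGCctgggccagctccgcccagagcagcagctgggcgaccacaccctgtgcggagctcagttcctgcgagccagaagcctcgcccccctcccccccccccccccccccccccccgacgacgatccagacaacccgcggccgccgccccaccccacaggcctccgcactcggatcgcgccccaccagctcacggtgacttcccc
In Slc25a34 the capitals mark AAGGTCA read on the opposite strand, TGACCTT, which begins at position -119 from the start site. In Slc25a24 they mark the NRF1 core as GCGCAGGC, beginning at position -158, and the Slc25a20 window held none of the 3 motifs. Slc25a34 was the only carrier of the 35 with AAGGTCA, which 4.72% of all 32851 promoters held. The NRF1 core was in 7 of the 35 carriers (20%) and in 9.95% of all promoters, and the direct repeat was in 0 of the 35 and in 0.381% of all promoters. A carrier was counted once if any of its promoters held the motif, whereas all promoters were counted singly, so these shares are in unlike units. Of the 7 carriers with the NRF1 core, Slc25a24 passed the expression test, while Slc25a13, Slc25a31 and Slc25a54 had too few counts to be tested. Of the 10 carriers that passed, 7 had a promoter entry. A match is a description of the letters and not of binding.

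Carriers of ADP, ATP and phosphate supply ATP synthase. None of the 3 tested members passed the threshold, and all 3 had a log2FC below 0. Slc25a4, the ADP/ATP carrier of muscle and heart type, was at 476, 439, 444 and 471 CPM in WT replicates 1 to 4 and at 371, 358, 331 and 326 CPM in ATGLKO replicates 1 to 4. The genotypes did not overlap, yet the log2FC of -0.40 (SE 0.15) had an edgeR adjusted p of 0.0668, which became 0.0443 without WT replicate 2 and 0.0023 with DESeq2's Wald test. In 13 of 17 alternatives it did not pass the threshold, and the adjusted p was 0.24 with total counts as the only scaling (log2FC -0.26), 0.167 without ATGLKO replicate 3 and 0.156 without ATGLKO replicate 4. Slc25a5, the ADP/ATP carrier of most other tissues, was at 59.8 to 143.8 CPM in WT mice and 61.8 to 88.4 CPM in ATGLKO mice, with a log2FC of -0.37 (SE 0.23, edgeR adjusted p = 0.287). The phosphate carrier Slc25a3 was at 175.9 to 271.5 CPM in WT mice and 157.1 to 224 CPM in ATGLKO mice (log2FC -0.17, SE 0.18, edgeR adjusted p = 0.567). Both ranges overlapped between genotypes.

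The calcium-regulated carriers that exchange ATP-Mg for phosphate moved in opposite directions. Slc25a24 (chr3:109123149-109168457, plus strand) had 5, 4, 0 and 5 counts in WT replicates 1 to 4 and 28, 47, 20 and 30 counts in ATGLKO replicates 1 to 4. In CPM these were 2.55, 1.79, 0 and 2.53 against 9.91, 14.6, 8.36 and 12.9, so that WT mice lay near the floor of 3 counts and every ATGLKO mouse lay above them. Its log2FC of 2.84 (SE 0.49, edgeR adjusted p = 0.000596) rests on 14 counts in all WT mice together and 125 in the ATGLKO mice. With under 10 counts in every WT mouse, it passed the filter on low counts through the ATGLKO mice alone, the genotype in which it is high. It was the only tested carrier with under 10 counts in every mouse of a genotype. The macrophage and fibroblast markers rose in the same mice, by the summed levels given above, and the part of those cells in the Slc25a24 level was not tested. Slc25a23 (chr17:57043711-57059863, minus strand), the relative with more counts, was at 100.5, 130.4, 94.8 and 123.6 CPM in WT replicates 1 to 4 and at 63.7, 69.7, 83.6 and 85.0 CPM in ATGLKO replicates 1 to 4. No ATGLKO mouse reached the lowest WT mouse, and the level was 67.2% of the WT mean (log2FC -0.57, SE 0.18, edgeR adjusted p = 0.0292). This call was lost without ATGLKO replicate 1 (adjusted p = 0.0904), without ATGLKO replicate 2 (adjusted p = 0.0929) and with total counts as the only scaling (adjusted p = 0.0945). The call was also lost under the filter of at least 10 counts in every mouse (edgeR adjusted p = 0.0534). An exon of Slc25a23 overlaps the gene model Gm17168 on the other strand, and since the use of strand in counting is not given in the sources used here, reads of the pair cannot be told apart.

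Of 4 tested carriers of dicarboxylates, aspartate and glutamate, 1 was lower, Slc25a22, which carries glutamate into mitochondria. Slc25a22 (chr7:141429744-141437892, minus strand) was at 15.8, 14.8, 16.0 and 17.2 CPM in WT replicates 1 to 4 and at 7.08, 5.91, 5.43 and 6.01 CPM in ATGLKO replicates 1 to 4. Mice of each genotype lay close together and far from the other genotype, and the ATGLKO mean was 38.3% of the WT mean (log2FC -1.37, SE 0.23, edgeR adjusted p = 0.000484). Slc25a11, the oxoglutarate carrier of the malate-aspartate shuttle, was at 77.0 to 151.0 CPM in WT mice and 71.3 to 109.9 CPM in ATGLKO mice, with overlapping ranges (log2FC -0.34, SE 0.21, edgeR adjusted p = 0.305), and its exons overlap those of Rnf167 on the other strand.

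The Slc25a22 gene lies 17.3 kb before Pnpla2 on chromosome 7, the gene that was floxed, so the genes around Pnpla2 were read from the same fit. Within 250 kb on each side lie 25 protein-coding genes, of which 16 were tested, 2 were lower (12.5%, against 7.63% of all genes tested), 4 were higher (25%, against 13.3%) and 10 did not pass the threshold. Slc25a22 is counted among the lower genes although its own call led to this window. The share of lower genes therefore does not show an excess around Pnpla2. Besides Slc25a22, the lower gene was Taldo1, an enzyme of the pentose phosphate pathway, with a gap of 52.2 kb to Pnpla2 and a log2FC of -1.29 (SE 0.17, edgeR adjusted p = 7.18e-05). Rplp2, a ribosomal protein gene that lies between Slc25a22 and Pnpla2, had a log2FC of 0.03 (SE 0.18, edgeR adjusted p = 0.932). On the far side of Pnpla2, Cracr2b at a gap of 0.35 kb and Tspan4 at a gap of 14.5 kb were higher, with log2FC values of 0.91 and 0.96, as were Irf7 and Rassf7 at gaps of 189 and 237 kb before it. Rassf7 was at 0 to 2.03 CPM in WT mice, near the floor of 3 counts. Pnpla2 itself had a log2FC of -2.62. Whether the position of Slc25a22 beside the floxed gene bears on its level was not tested.

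**Figure D2:**
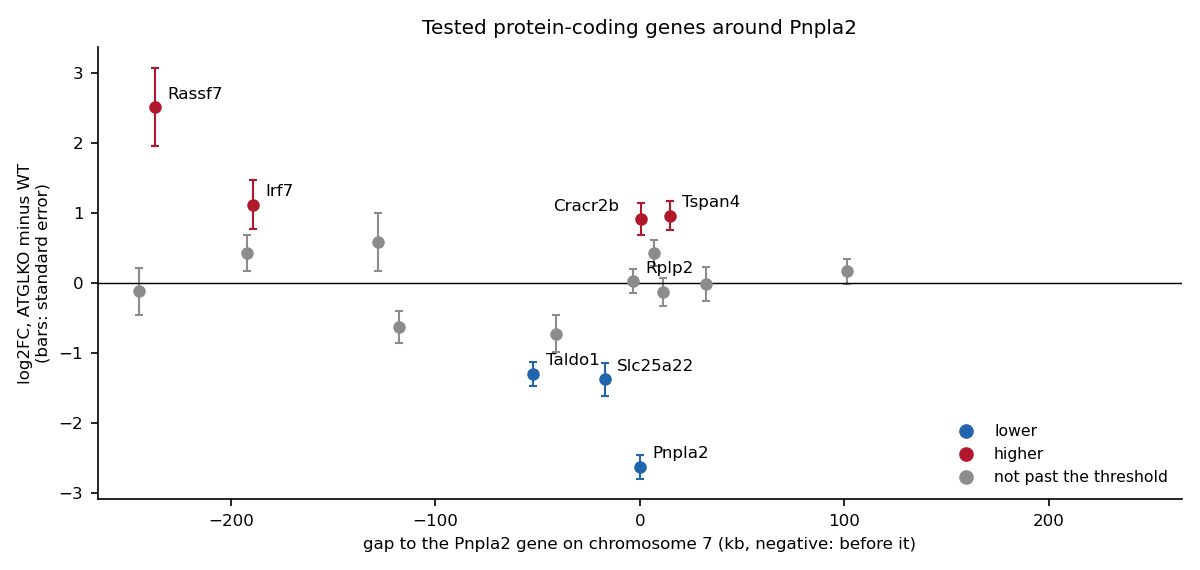
Log2FC (y axis, ATGLKO minus WT, log2 scale, bars for the standard error) of Pnpla2 and the 16 tested protein-coding genes within 250 kb, by their gap to Pnpla2 in kb (x axis, negative before it). Slc25a22 and Taldo1 lie below 0 before Pnpla2, Rplp2 lies at 0.03 between Slc25a22 and Pnpla2, and Cracr2b and Tspan4 lie above 0 after it.

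Carriers of amino acids and glutathione included 2 lower genes of 5 tested. Slc25a44 (chr3:88410498-88425139, minus strand), the carrier of branched-chain amino acids known from brown fat, was at 116.8, 100.8, 82.1 and 99.8 CPM in WT replicates 1 to 4 and at 60.9, 55.7, 65.6 and 57.9 CPM in ATGLKO replicates 1 to 4. All ATGLKO mice were below all WT mice, at 60.1% of the WT mean (log2FC -0.73, SE 0.16, edgeR adjusted p = 0.00463). Slc25a15 (chr8:22375551-22398597, minus strand), the ornithine carrier of the urea cycle, was at 12.7, 17.9, 14.4 and 15.2 CPM in WT replicates 1 to 4 and at 9.20, 7.78, 12.1 and 6.01 CPM in ATGLKO replicates 1 to 4. The gap between the lowest WT mouse and the highest ATGLKO mouse was narrow, and the log2FC was -0.78 (SE 0.25, edgeR adjusted p = 0.0397). Of 17 alternatives, 10 lost this call, more than for any other of the 10 genes past the threshold. Leaving out WT replicate 2, 3 or 4 raised its adjusted p to 0.0808, 0.0696 and 0.0524, and leaving out ATGLKO replicate 1, 2 or 4 raised it to 0.0699, 0.105 and 0.11. Slc25a39, which carries glutathione, was at 306.5 to 381.4 CPM in WT mice and 289.7 to 422.4 CPM in ATGLKO mice (log2FC 0.06, SE 0.16, edgeR adjusted p = 0.848), with its sign turning to -0.03 without ATGLKO replicate 1 and to -0.00064 without WT replicate 4. Its relative Slc25a40 was at 5.01 to 13.3 CPM and 4.6 to 9.87 CPM (log2FC -0.33, SE 0.35, edgeR adjusted p = 0.555).

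Carriers of acylcarnitine, coenzyme A and choline included 2 lower genes of 6 tested. Slc25a20 (chr9:108662088-108684641, plus strand), the carnitine/acylcarnitine carrier through which long-chain fatty acids reach the matrix, was at 258.5, 335.6, 284.2 and 227.5 CPM in WT replicates 1 to 4 and at 155.7, 111.7, 152.5 and 128.8 CPM in ATGLKO replicates 1 to 4. The highest ATGLKO mouse was well below the lowest WT mouse, and the mean was 49.6% of the WT mean (log2FC -1.01, SE 0.18, edgeR adjusted p = 0.000739). Slc25a16 (chr10:62920633-62946498, plus strand), linked to coenzyme A uptake, was at 27.5, 18.8, 25.7 and 27.9 CPM in WT replicates 1 to 4 and at 8.84, 18.0, 12.95 and 14.2 CPM in ATGLKO replicates 1 to 4. WT replicate 2 and ATGLKO replicate 2 almost met, and the mean was 54.1% of the WT mean (log2FC -0.88, SE 0.24, edgeR adjusted p = 0.0149). Without ATGLKO replicate 1, the mouse with the lowest level, its adjusted p was 0.0544. Slc25a42, another coenzyme A carrier, was at 11.1 to 25.5 CPM in WT mice and 9.02 to 20.1 CPM in ATGLKO mice, with a log2FC of -0.33 (SE 0.30, edgeR adjusted p = 0.484).

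**Figure D3:**
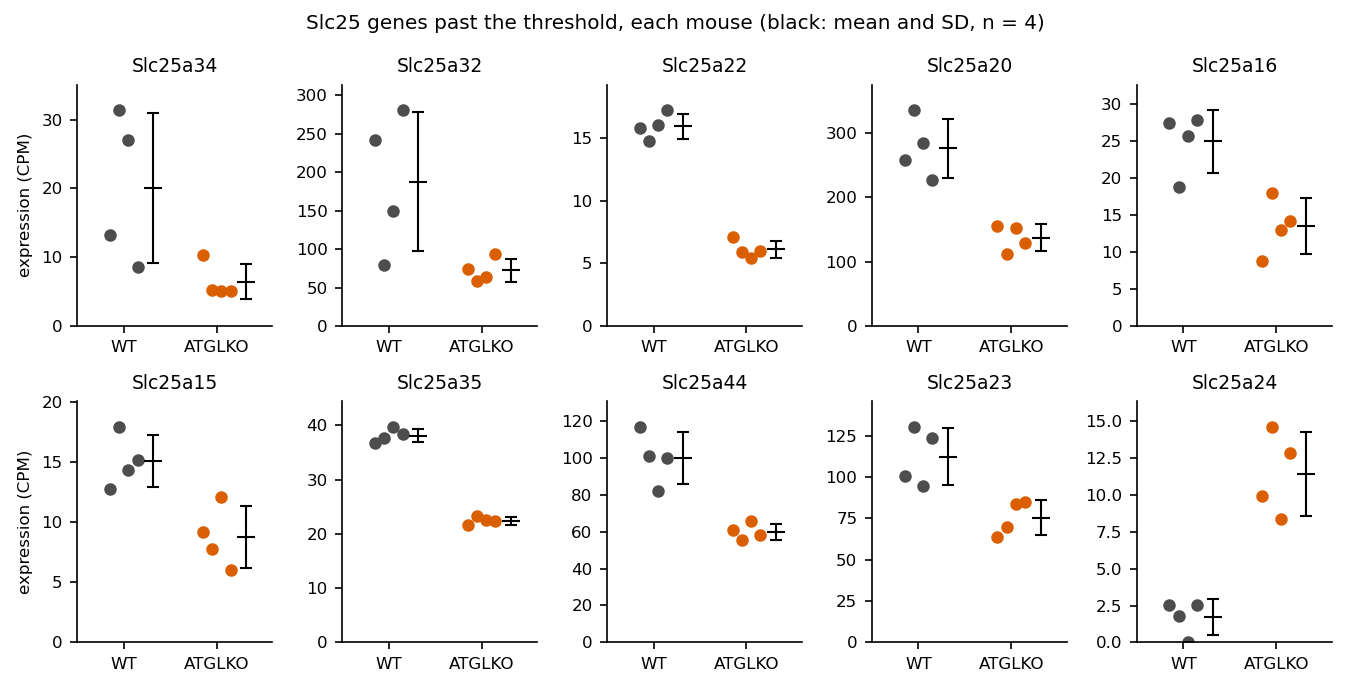
Expression in CPM (y axis, from 0) of the 10 carriers past the threshold in each WT mouse and each ATGLKO mouse (points), with the mean and SD of 4 mice in black. In Slc25a34 and Slc25a32 the genotypes overlap and the WT mice spread widely. The genes are shown because they passed the test, and the genotypes also did not overlap in some carriers that did not pass, such as Slc25a4 and Slc25a46.

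Of 6 tested carriers of vitamins, nucleotides and S-adenosylmethionine, 1 was lower. Slc25a32 (chr15:39091231-39112716, minus strand), which carries folate and is linked to FAD uptake, was at 241.7, 79.3, 150.3 and 280.6 CPM in WT replicates 1 to 4 and at 74.3, 57.9, 63.9 and 93.1 CPM in ATGLKO replicates 1 to 4. WT mice differed by 3.54 times from lowest to highest, and WT replicate 2 lay below ATGLKO replicate 4. The log2FC was -1.38 (SE 0.31, edgeR adjusted p = 0.00424), and it ranged from -1.64 to -1.13 when single mice were left out. Slc25a51, the NAD carrier, was at 472.7 to 600.1 CPM in WT mice and 489.8 to 585.9 CPM in ATGLKO mice, with a log2FC of 0.05 (SE 0.16, edgeR adjusted p = 0.865) that turned to -0.003 without WT replicate 1 and to -0.007 without WT replicate 2. The pyrimidine nucleotide carriers Slc25a33 and Slc25a36 had log2FC values of -0.05 (SE 0.25, edgeR adjusted p = 0.915) and -0.27 (SE 0.25, edgeR adjusted p = 0.488), and that of Slc25a33 turned to 0.08 with total counts as the only scaling.

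Neither iron carrier passed the threshold. Slc25a28, or mitoferrin 2, was at 23.0 to 35.0 CPM in WT mice and 18.0 to 22.3 CPM in ATGLKO mice (log2FC -0.38, SE 0.20, edgeR adjusted p = 0.196). Slc25a37, or mitoferrin 1, was at 17.2 to 34.9 CPM and 21.03 to 39.7 CPM (log2FC 0.30, SE 0.26, edgeR adjusted p = 0.463). Of the uncoupling protein-like carriers, 1 of 3 was tested, Slc25a30, and it had a log2FC of 0.59 that did not pass the threshold (edgeR adjusted p = 0.105).

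Members with no settled substrate included 2 lower genes of 3 tested. Slc25a34 (chr4:141618824-141623821, minus strand) was at 13.3, 31.4, 27.0 and 8.61 CPM in WT replicates 1 to 4 and at 10.3, 5.29, 5.01 and 5.15 CPM in ATGLKO replicates 1 to 4. Its WT level was high in replicates 2 and 3 and low in replicates 1 and 4, ATGLKO replicate 1 lay above WT replicate 4, and the log2FC was -1.65 (SE 0.38, edgeR adjusted p = 0.00554). Slc25a35 (chr11:68968131-68974365, plus strand) was at 36.7, 37.6, 39.7 and 38.5 CPM in WT replicates 1 to 4 and at 21.6, 23.3, 22.6 and 22.3 CPM in ATGLKO replicates 1 to 4. Slc25a35 varied little within a genotype, with a ratio of highest to lowest mouse of 1.08 in each, and the ATGLKO mean was 58.9% of the WT mean (log2FC -0.76, SE 0.17, edgeR adjusted p = 0.00371). Its exons overlap those of Rangrf on the other strand, whose reads cannot be told apart from its own without strand. Slc25a46, which sits in the outer membrane and takes part in mitochondrial fusion and fission, was at 102.3 to 147.8 CPM in WT mice and 65.3 to 100.3 CPM in ATGLKO mice. The genotypes did not overlap, and the log2FC of -0.50 (SE 0.18) had an edgeR adjusted p of 0.0687, or 0.0433 without WT replicate 4. In 14 of 17 alternatives it did not pass the threshold, and the adjusted p was 0.208 without ATGLKO replicate 2 and 0.181 with total counts as the only scaling.

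Skeletal muscle markers varied widely between mice of each genotype, so the carriers were also read against them. The summed level of 9 muscle markers was 1586, 108.4, 20.7 and 756 CPM in WT replicates 1 to 4 and 362, 2290, 71.5 and 987 CPM in ATGLKO replicates 1 to 4. It was high in WT replicates 1 and 4 and in ATGLKO replicates 2 and 4. When the log2 of this sum was fitted beside genotype, the slope was above 0 at an edgeR adjusted p under 0.05 for 1 of the 32 carriers, against 0.605% of all genes tested, and below 0 for 0 of the 32, against 0.0784% of all genes tested. The carrier was Slc25a12, the aspartate/glutamate carrier of excitable tissues, at 11.2, 2.69, 1.67 and 8.11 CPM in WT replicates 1 to 4 and 8.84, 14.3, 5.43 and 11.2 CPM in ATGLKO replicates 1 to 4. Its slope was 0.37 on the log2 scale per doubling of the muscle markers (SE 0.07, edgeR adjusted p = 0.00977), and its log2FC was 0.84 without the muscle term and 0.52 with it, with adjusted p of 0.234 and 0.256. With the muscle term, 8 of the 32 carriers were lower and 2 higher, against 645 lower and 1187 higher of all 8930 genes tested. Slc25a15 left the lower genes (log2FC -0.70 with the term and -0.78 without it, adjusted p = 0.0662 with it) and Slc25a26, the S-adenosylmethionine carrier, joined the higher ones with a log2FC of 0.82 (adjusted p = 0.0356). Slc25a32 and Slc25a34, whose WT mice spread most among the 10 called genes with a count in every mouse, kept log2FC values of -1.45 and -1.34 (adjusted p of 0.000296 and 0.00723). Their own slopes, 0.12 and -0.18, did not pass the threshold (adjusted p of 0.52 and 0.447).

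**Figure D4:**
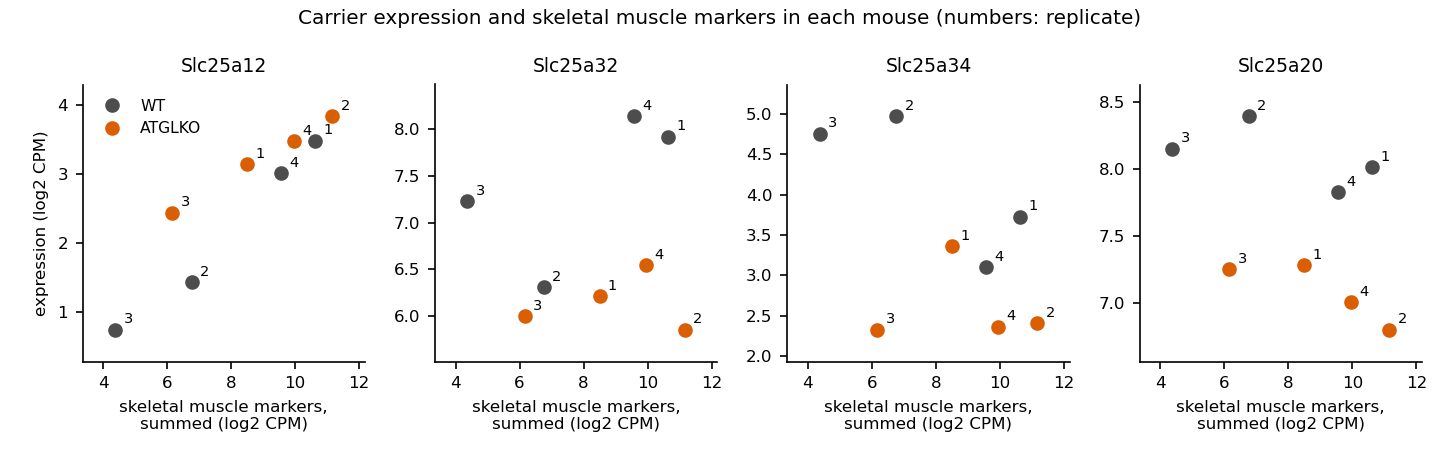
Log2 CPM of Slc25a12, Slc25a32, Slc25a34 and Slc25a20 (y axes) against the log2 of the summed CPM of 9 skeletal muscle markers (x axes), with 1 point per mouse numbered by replicate. Slc25a12 climbs with the muscle markers in both genotypes, while Slc25a20 is lower in every ATGLKO mouse at low and high muscle levels alike.

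Related carriers that share a substrate were also set against each other as a log2 ratio within each mouse, which needs no scaling between libraries. Of 10 planned pairs, 5 had both genes tested, and none passed the threshold (two-sided exact permutation tests, smallest possible p 0.0286, Benjamini-Hochberg over the 5 pairs). A single pair at that smallest p would have an adjusted p of 0.143, so 1 pair alone could not have passed. The log2 ratio of Slc25a5 to Slc25a4 was -2.27 ± 0.56 in WT mice and -2.18 ± 0.16 in ATGLKO mice (SD, n = 4; difference 0.09, SE 0.29, exact p = 0.714, adjusted 0.83). That of Slc25a28 to Slc25a37 was 0.24 ± 0.57 and -0.44 ± 0.53 (difference -0.68, SE 0.39, exact p = 0.143, adjusted 0.643). Slc25a16 to Slc25a42 gave a difference of -0.63 (SE 0.54, exact p = 0.257, adjusted 0.643), Slc25a39 to Slc25a40 one of 0.37 (SE 0.52, exact p = 0.514, adjusted 0.83) and Slc25a33 to Slc25a36 one of 0.25 (SE 0.52, exact p = 0.83, adjusted 0.83). Leaving out single mice moved the difference for Slc25a5 to Slc25a4 from -0.14 (without WT replicate 4) to 0.31, and that for Slc25a33 to Slc25a36 from -0.23 (without ATGLKO replicate 1) to 0.43, so neither kept its sign, and that for Slc25a39 to Slc25a40 from 0.07 to 0.70. A p above the threshold does not show that the ratios were equal at these standard errors.

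The 14 carriers with too few counts for the test are described apart. Slc25a41 and Slc25a54 had 0 counts in every mouse, which allows up to 3 counts per library, or 0.933 to 1.53 CPM. When all genes with at least 1 count in any mouse were fitted, the other 12 were given a value. Of these, 2 were higher in ATGLKO mice, against 9.81% of all genes in that fit. Lower genes numbered 0 of the 12, against 883 of all 16617 genes in that fit. The higher genes, named after their values were seen, were Slc25a13, the aspartate/glutamate carrier of liver type, and Slc25a25, another ATP-Mg/phosphate carrier. Slc25a13 had 0, 2, 0 and 0 counts in WT replicates 1 to 4 and 5, 21, 1 and 6 counts in ATGLKO replicates 1 to 4 (edgeR adjusted p = 0.00143). The count of 21 in ATGLKO replicate 2 makes up most of its ATGLKO total of 33, and its genotypes overlapped in CPM. Slc25a25 had 1, 7, 6 and 6 counts against 22, 12, 29 and 5 (edgeR adjusted p = 0.0111), also with overlap, since ATGLKO replicate 4 was below the highest WT mouse. DESeq2's Wald test, on the same filter, called Slc25a13 and did not call Slc25a25. The edgeR adjusted p in this fit differed from the main fit in both directions. It was 7.9e-09 against 0.00424 for Slc25a32, and 0.143 against 0.0668 for Slc25a4. The remaining 10 genes with a value had between 2 and 33 counts in all WT mice together, or 0 for Slc25a21, Slc25a31 and Slc25a43.

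Family members and partners under other symbols were read from the same fit, as lists of 40 genes of which 37 were tested, 9 were lower (24.3%, against 7.63% of all genes tested) and 6 were higher (16.2%, against 13.3%), with a median log2FC of -0.27. Ucp1, the uncoupling protein of brown fat, was at 2051, 4110, 3427 and 1291 CPM in WT replicates 1 to 4 and at 2821, 1421, 1972 and 2394 CPM in ATGLKO replicates 1 to 4. It varied strongly within each genotype and did not pass the threshold (log2FC -0.34, SE 0.30, edgeR adjusted p = 0.481). Ucp2, the uncoupling protein of many tissues including macrophages, was at 18.4 to 29.9 CPM in WT mice and 95.3 to 161.3 CPM in ATGLKO mice, with no overlap (log2FC 2.43, SE 0.21, edgeR adjusted p = 1.48e-06), in the same mice as the macrophage markers, whose part in its level was not tested. Ucp3, known from muscle and brown fat, was lower at 12.4 to 33.6 CPM against 32.1 to 76.8 CPM in WT mice (log2FC -1.09, SE 0.31, edgeR adjusted p = 0.0209). Mtch2, an outer membrane member of the family, was lower at 563 ± 19.1 CPM against 823 ± 148 CPM in WT mice (SD, n = 4; log2FC -0.55, edgeR adjusted p = 0.0296), and its relative Mtch1 had a log2FC of -0.11 (edgeR adjusted p = 0.748).

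Of 19 tested genes of other mitochondrial transport, 4 were lower (21.1%, against 7.63% of all genes tested) and 1 was higher (5.26%, against 13.3%). Mpc1 and Mpc2, the subunits of the pyruvate carrier, were lower together, with log2FC values of -1.41 and -0.87 (edgeR adjusted p of 0.00512 and 0.0143). Sfxn5, a sideroflexin, and Vdac1, a channel of the outer membrane, were lower by log2FC values of -0.86 and -0.56 (edgeR adjusted p of 0.00436 and 0.0144). Sfxn3, another sideroflexin, was higher by 2.0 on the log2 scale (edgeR adjusted p = 0.00187), at 5.58 to 12.4 CPM in ATGLKO mice against 0.896 to 3.546 CPM in WT mice, near the floor of 3 counts, so it passed the filter on low counts through the ATGLKO mice. Of 13 tested enzymes that work with the carriers, 3 were lower (23.1%, against 7.63% of all genes tested) and 4 were higher (30.8%, against 13.3%). Gpd1 and Gpd2, the enzymes of the glycerol phosphate shuttle, had log2FC values of -0.83 and -0.64 (edgeR adjusted p of 0.0111 and 0.00913), and Crat, which makes acetylcarnitine, one of -0.88 (edgeR adjusted p = 0.0153). Got1 and Got2, the transaminases of the malate-aspartate shuttle, were higher by 1.74 and 0.94 (edgeR adjusted p of 0.000868 and 0.00109), as was Cpt1a, which makes long-chain acylcarnitines, by 1.29 (edgeR adjusted p = 0.000653). Among the tested genes of the carnitine route, Cpt1a was thus on the higher side and Slc25a20 and Crat on the lower. Cpt2 had a log2FC of -0.52 (edgeR adjusted p = 0.108). Cpt1b, also on the list of enzymes, was not tested, at 0 CPM in every WT mouse and a mean of 0.21 CPM in ATGLKO mice. A count of 0 does not show that the Cpt1b mRNA was absent from the tissue, and the reason for it was not tested. The carnitine route is thus described here without Cpt1b. Macrophage and fibroblast markers rose in the same mice, and the part of those cells in the Cpt1a level was not tested. Of 81 nuclear genes of the respiratory chain tested, 11 were lower (13.6%, against 7.63% of all genes tested) and 0 higher (against 13.3%), and their median log2FC was -0.42, beside -0.34 for the carriers.

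**Figure D5:**
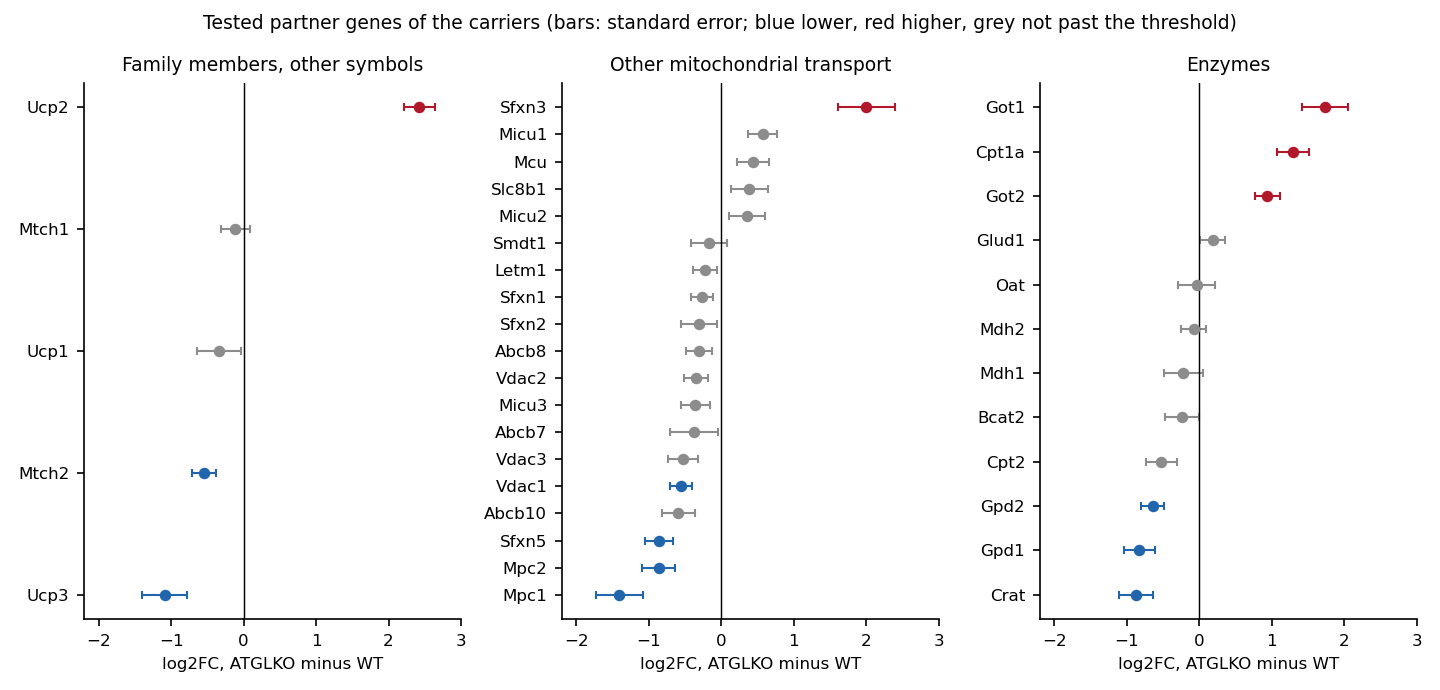
Log2FC (x axes, ATGLKO minus WT, log2 scale, bars for the standard error) of tested partner genes, all but 1 of the 37, as family members under other symbols, genes of other mitochondrial transport, and enzymes. Ucp2 at 2.43, Sfxn3 at 2.0 and Got1 at 1.74 lie highest, and Mpc1 at -1.41 and Ucp3 at -1.09 lie lowest.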

How the data were processed

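BAT of 4 WT and 4 ATGLKO mice was profiled by bulk RNA-seq, with groups taken from the sample labels. The authors deposited whole-number counts per Ensembl gene without normalization, which per the methods were made with bbduk, STAR on mm10 and HTseq-counts, whereas the submitters' processing notes name Trimmomatic, HISAT2 and DESeq2. The use of strand in counting is not given in the sources used here. The authors also deposited log2 values, in which every count had been divided by a factor specific to its mouse and 1 added before the log2 was taken, used for 1 alternative. Columns of the authors' own comparisons were not used.

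Symbols and positions came from GENCODE M21 on GRCm38 (30934 of 31053 identifiers matched). Genes were filtered with filterByExpr, scaled by TMM and tested with edgeR 4.0.16 in R 4.3.3 on genotype alone, with Benjamini-Hochberg adjustment over all genes tested. The SE was obtained by dividing the absolute log2FC by the root of F, and ratios used a prior count of 0.5. The labels name no litters or pools, so p-values measure the spread between these samples. Within a genotype, the chi-square between mice was 5.36 to 25.4 per degree of freedom, so none was counted as a duplicate. On simulated counts for this comparison (8712 genes tested), 59.1% of 93 genes changed by 1 on the log2 scale and 98.9% of 89 changed by 2 were called. In the data 1872 of 8930 genes were called, a larger share than was changed in the simulation, so these rates do not give the recovery in the data.

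The carriers, lists and pairs were chosen with earlier results of these data known. Carriers were named when past the threshold, among the 10 with the highest mean CPM, or in a usable pair, and partners when in the family or past the threshold. Slc25a12, Slc25a13, Slc25a25, Slc25a26, Slc25a30, Slc25a45, Cpt1b, Cpt2 and the genes around Pnpla2 were named after their values were seen. Counts include 1 carrier and 1 partner enzyme whose own values are not reported here. Alternatives varied the scaling, the test (the Wald test of DESeq2 1.42.0, voom and trend of limma 3.58.1), the filter and the threshold, added the replicate number as a block, or left out each mouse in turn, and the skeletal muscle term and the sum of carriers by total counts were added after the data were seen.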

Additional observations from a re-analysis of the deposited data

Results flagged for a closer look

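Slc25a34 in ATGLKO replicate 1 stood apart from the other ATGLKO mice, with 3.47 on the log2 CPM scale where the other 3 had 2.54 to 2.61, so that the gap to the nearest mouse took up 0.928 of the range of the genotype, above Dixon's critical value for 4 samples. Without that mouse the log2FC of Slc25a34 was -1.96, against -1.65 with it. This was 1 of 50 combinations of gene or summed level and genotype examined, of which chance alone would mark about 2.5.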

How the results depend on the processing

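Of 24 named carriers, 16 kept their direction and their side of the threshold under all alternatives in which they were fitted. Over 407 values in all, 375 did so, 15 lost the threshold, 7 passed it and 10 changed sign. The number of lower carriers stayed between 6 and 11, at 6 with an adjusted p threshold of 0.01 and at 6 to 10 when single mice were left out (6 without ATGLKO replicate 1), and DESeq2's size factors changed no call. The number of higher carriers was 4 when scaled by total counts and with at least 1 count in any mouse, and 2 with DESeq2's Wald test, limma voom, limma trend, the replicate block and the skeletal muscle term. It was 1 to 3 when single mice were left out, with 3 without WT replicate 4, where Slc25a30 and Slc25a45 joined. The cause of these changes was not tested. Slc25a45 had 2, 1, 3 and 10 counts in WT replicates 1 to 4 and 10, 18, 13 and 15 in ATGLKO replicates 1 to 4. Only WT replicate 4 was thus above the floor of 3 counts among the WT mice. In the main fit its log2FC was 1.53 (edgeR adjusted p = 0.0508). The median log2FC of the carriers was -0.19 with total counts only and -0.39 to -0.33 when single mice were left out. The sign of Slc25a33 changed to 0.075 on scaling by total counts, to 0.018 under the filter of 10 counts in every mouse, and when single mice were left out (-0.31 to 0.15). Slc25a39 (-0.033 to 0.15) and Slc25a51 (-0.0066 to 0.11) changed sign only when single mice were left out. Slc25a24 could not be fitted with at least 10 counts in every mouse. Over all genes, the lower genes numbered 404 on scaling by total counts, 449 under the filter of 10 counts in every mouse (746 higher) and 400 without ATGLKO replicate 2. Same-numbered mice of the 2 genotypes correlated by -0.09, -0.20, 0.30 and 0.24 in their deviations from the group means, and 3 of 8 mice correlated best with their own number, so the numbers were not taken to pair the mice. With the replicate block, 8 carriers were lower and 2 higher, against 581 lower and 1138 higher of all 8930 genes tested. Under it Slc25a45 had joined and Slc25a15 left. Depth limits the 14 carriers that were not tested and genes such as Slc25a24, whose WT counts were 0 to 5.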
